A study of Mus musculus with 4 samples.

Results

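The mitochondrial genome encodes 2 ribosomal RNAs, mt-Rnr1 (12S rRNA, of the small subunit of the mitochondrial ribosome) and mt-Rnr2 (16S rRNA, of the large subunit). Both were found by symbol among the 56748 gene IDs of the deposited count tables, next to 13 protein genes and 22 tRNA genes of the same chromosome. The tables came from lymph nodes of 4 mice that had EAE (experimental autoimmune encephalomyelitis), an inflammatory disease of the brain and spinal cord. Libraries BrQ 1 and BrQ 3 were made from mice treated with 2-bromo-1,4-naphthalenedione (BrQ), and libraries Vehicle 1 and Vehicle 3 from control mice that also had EAE. Strain, age, dose and treatment time, and whether rRNA was depleted or poly(A) RNA selected, were not given in the sources used here.

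Mitochondrial ribosomes translate the 13 mitochondrial mRNAs into subunits of the respiratory chain and of ATP synthase, with the 12S rRNA at the site where the message is decoded and the 16S rRNA at the site where the peptide bond is made. The rRNA genes lie together near the start of the heavy strand transcription unit. Transcripts of this strand are long and are cut apart mostly at the tRNAs that stand between the genes. Mature mitochondrial rRNAs carry short 3′ adenylate tails at most, whereas most mitochondrial mRNAs are polyadenylated, so that library selection weighs on any level read from sequencing counts.

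On the mitochondrial chromosome of GRCm38 (GENCODE M21 positions), mt-Rnr1 (ENSMUSG00000064337) spans bases 70 to 1024 and mt-Rnr2 (ENSMUSG00000064339) bases 1094 to 2675. Both are single-exon, noncoding genes on the plus strand, of 955 and 1582 bases. The gene mt-Tf, for tRNA-Phe, precedes mt-Rnr1. The gene mt-Tv, for tRNA-Val, fills the space between the rRNA genes with no base to spare, and mt-Tl1, for tRNA-Leu(UUR), separates mt-Rnr2 from mt-Nd1 in the same way. These junctions are shown because they set which reads belong to each rRNA gene. Each line gives the last 30 bases of the upstream gene, the tRNA in capitals, and the first 30 bases of the downstream gene, 5′ to 3′ on the plus strand, from GENCODE M21 transcripts.
mt-Rnr1 to mt-Rnr2 (chrM:995-1123): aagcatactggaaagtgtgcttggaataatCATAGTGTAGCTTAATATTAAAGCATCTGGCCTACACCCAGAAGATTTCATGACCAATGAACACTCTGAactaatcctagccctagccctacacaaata
mt-Rnr2 to mt-Nd1 (chrM:2646-2780): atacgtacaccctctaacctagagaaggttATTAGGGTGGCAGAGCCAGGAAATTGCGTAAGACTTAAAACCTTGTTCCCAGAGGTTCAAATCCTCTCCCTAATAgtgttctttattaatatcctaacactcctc

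The second junction holds TGGCAGAGC, from base 8 of mt-Tl1. These letters begin the sequence that the mitochondrial transcription termination factor binds at this tRNA in human mitochondria. Searched on both strands, these letters were found in 1 of the 37 mitochondrial genes (2.70%). The flanking genes mt-Tf, mt-Tv and mt-Tl1 held 0 reads in all 4 libraries, which allows up to 3 reads each per library by counting error alone. The tRNAs are 69 and 75 bases long at the junctions shown. How the counting treated a read that spans 2 genes is not given in the sources used here.

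In base composition the rRNA genes were alike. G and C made up 35.8% of mt-Rnr1 and 35.4% of mt-Rnr2, against 31.9% to 41.1% in the 13 protein genes. Adenine made up 37.8% and 38.2%, against a median of 33.8% in the protein genes (range 22.2% to 40.7%). The longest run of adenines was 5 bases in mt-Rnr1 and 7 in mt-Rnr2. None of the 50-base stretches of mt-Rnr1 occurred in any GENCODE M21 transcript from outside the mitochondrial genes, and 16 of 1533 (1.04%) of those of mt-Rnr2 did, all in the predicted gene Gm20594. The same share was 51.1% for mt-Co1 and 100% for mt-Co2, so the rRNA counts were less exposed to shared transcript sequence than those of several protein genes. Nuclear sequence outside annotated transcripts was not searched.

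The libraries held between 6813832 and 7989226 reads in genes, while 87.0% to 89.0% of all read rows named no gene. Most nuclear gene names in these tables were not shown to sit on the reads of their genes, which limits the markers that can be read. Each library held reads on all 13 mitochondrial protein genes, which alone does not show that the mitochondrial names sit on their reads. Of the lymph node markers checked, the B cell gene Pax5 stood at 1034 to 1255 CPM (counts scaled to a common library total). The stromal chemokine gene Ccl21a held 0 reads in each library. Another, Ccl19, held more reads in BrQ (27 and 8 in BrQ 1 and BrQ 3, 5 and 0 in Vehicle 1 and Vehicle 3) but was too low to be tested. Other cell type markers were called lower in BrQ with edgeR, as were 22.2% of all features tested. These were Cd72 (B cells, log2 fold change -1.01, adjusted p = 0.000285), Il7r (T cells, -0.61, adjusted p = 0.00616) and Col1a2 (fibroblasts, -0.78, adjusted p = 0.0352). Pax5 did not pass (-0.22, adjusted p = 0.155, edgeR). The part of cell makeup in the rRNA results was not tested. Mitochondrial genes took 15.8% and 12.1% of gene reads in BrQ 1 and BrQ 3, and 20.6% and 30.3% in Vehicle 1 and Vehicle 3.

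The 12S gene mt-Rnr1 was read 17278 times in BrQ 1, 11433 times in BrQ 3, 14485 times in Vehicle 1 and 29014 times in Vehicle 3. As CPM scaled by the trimmed mean of M-values (TMM), these were 2182, 1475, 2105 and 4452. The highest value was that of Vehicle 3, and the groups overlapped, since BrQ 1 lay above Vehicle 1. The mean was 3278 ± 1660 CPM in Vehicle and 1829 ± 500.1 CPM in BrQ (SD, n = 2 each). The log2 fold change was -0.84 ± 0.30 (SE), or 1.79-fold lower in BrQ, with an adjusted p of 0.0412 in edgeR's quasi-likelihood test (Benjamini-Hochberg over 10223 features).

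The 16S gene mt-Rnr2 was read 19305 and 13714 times in BrQ 1 and BrQ 3, and 19405 and 34974 times in Vehicle 1 and Vehicle 3. Scaled, these were 2438 and 1770 CPM in BrQ and 2819 and 5367 CPM in Vehicle. Both BrQ libraries were below both Vehicle libraries, and Vehicle 3 was again far above the other 3. The share of all features tested with this order of the groups was not counted, so nothing is read from the order. The mean was 4093 ± 1801 CPM in Vehicle and 2104 ± 473.0 CPM in BrQ (SD, n = 2 each). The log2 fold change was -0.96 ± 0.26 (SE), or 1.95-fold lower in BrQ (adjusted p = 0.0144, edgeR).

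**Figure D1:**
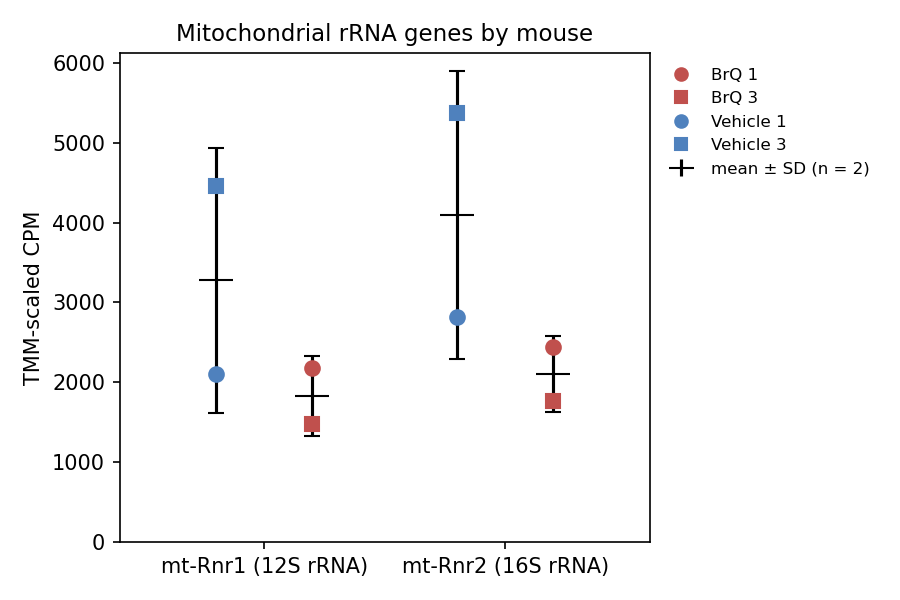
TMM-scaled CPM of mt-Rnr1 and mt-Rnr2 in each mouse (circles, replicate 1; squares, replicate 3), with the mean and SD of each group (n = 2). For mt-Rnr1 the BrQ value of 2182 lies above the Vehicle value of 2105, and Vehicle 3 is highest for both genes, at 4452 and 5367.

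Both rRNA genes passed as lower in BrQ, in a fit where 45.7% of all features tested passed and 22.2% passed as lower. A share of 17.7% of all features tested had a lower fold change than mt-Rnr1, and 14.2% had a lower one than mt-Rnr2. Neither value is therefore extreme among the features of these libraries. In bulk tissue, fewer cells rich in mitochondria and less mitochondrial RNA per cell cannot be told apart.

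The calls rest on Vehicle 3 and BrQ 3. Without Vehicle 3 the log2 fold change was -0.21 ± 0.22 (SE) for mt-Rnr1 (adjusted p = 0.477, edgeR) and -0.43 ± 0.20 for mt-Rnr2 (adjusted p = 0.125, edgeR). Without BrQ 3 it was -0.58 ± 0.37 for mt-Rnr1 (adjusted p = 0.280, edgeR) and -0.74 ± 0.33 for mt-Rnr2 (adjusted p = 0.143, edgeR). Each of these fits leaves 1 mouse in a group, and takes the spread from the other group. Without Vehicle 1 the values were -1.31 ± 0.21 and -1.37 ± 0.20, and without BrQ 1 -1.14 ± 0.35 and -1.20 ± 0.32; these fits kept both calls.

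The test also mattered. DESeq2 gave nearly the same sizes, -0.86 ± 0.60 for mt-Rnr1 and -0.97 ± 0.51 for mt-Rnr2 (SE), but neither passed (adjusted p = 0.289 and 0.141, DESeq2). With no filter on low counts in edgeR neither passed (adjusted p = 0.250 and 0.146). The call of mt-Rnr1 alone was lost with limma voom (adjusted p = 0.0597) and with edgeR on library size from gene reads alone (-0.44, adjusted p = 0.127) or from all read rows (-0.61, adjusted p = 0.0629). Library size alone moved the median log2 fold change of all features from 0.05 to 0.42. Relative to that median, mt-Rnr1 stood at -0.89 with TMM and -0.86 with library size alone, and mt-Rnr2 at -1.01 and -0.98.

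**Figure D2:**
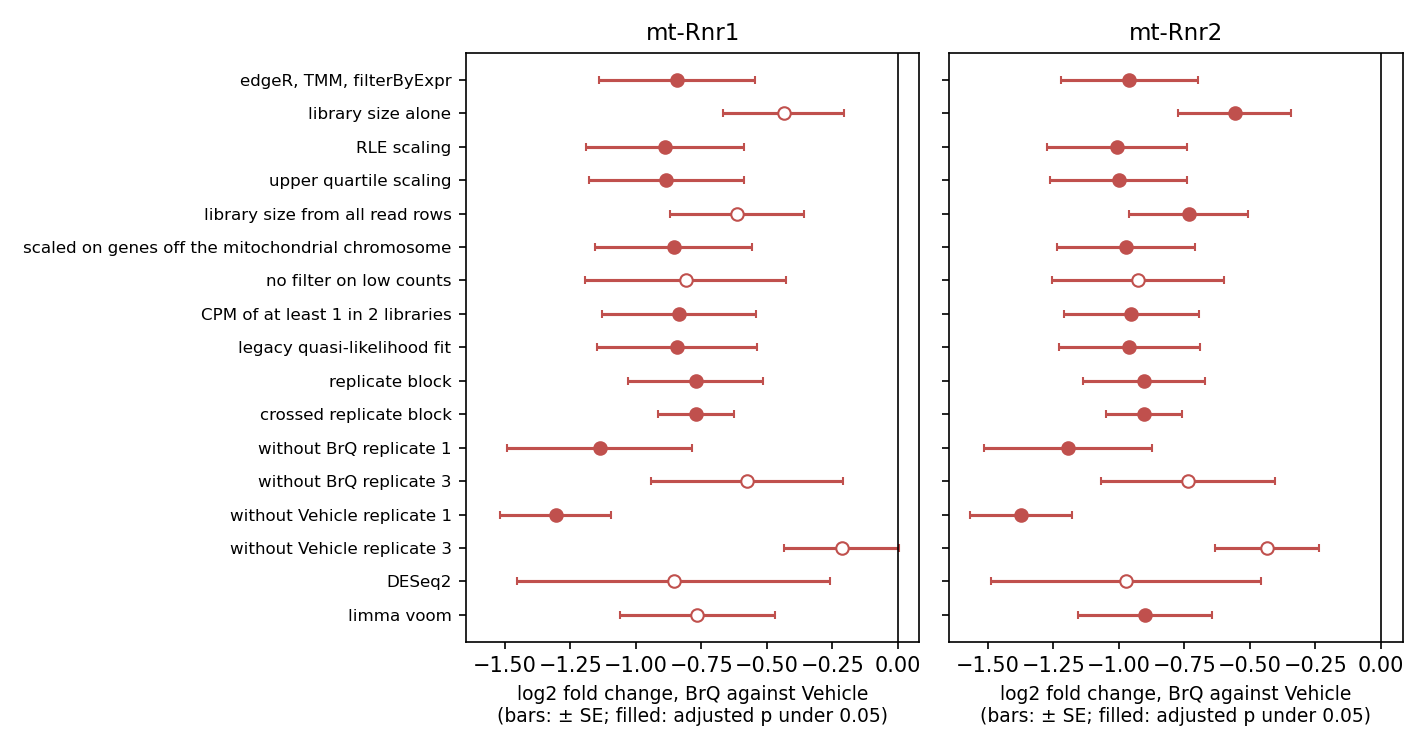
Log2 fold change of BrQ against Vehicle for mt-Rnr1 and mt-Rnr2 (x axis, bars ± SE) under each way of processing the counts (y axis), with filled points for an adjusted p under 0.05. Every value lies below 0, and the points nearest to 0 are those without Vehicle replicate 3, at -0.21 and -0.43.

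Per kilobase of gene, the rRNA genes stood below 7 mitochondrial protein genes. The level of mt-Rnr1 was 1915 ± 523.6 CPM per kilobase in BrQ and 3433 ± 1738 in Vehicle, and that of mt-Rnr2 was 1330 ± 299.0 and 2587 ± 1139 (SD, n = 2 each). By the mean over the 4 libraries they ranked 8 and 10 of the 37 mitochondrial genes, of which 23 had enough reads to be tested. Of the protein genes ranked below them, mt-Co2, mt-Co3, mt-Atp6, mt-Nd3 and mt-Nd4l had 98.0% to 100% of their 50-base stretches in other transcripts, and mt-Atp8 had 0%. The part of such sharing in these ranks was not tested. The gene mt-Co1, for subunit 1 of cytochrome c oxidase, ranked first, at 43757 ± 6379 CPM per kilobase in BrQ and 95873 ± 33481 in Vehicle.

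The gene mt-Rnr1 was above mt-Rnr2 per kilobase in 4 of 4 libraries. Its upper neighbour in the order, mt-Nd6, which encodes a complex I subunit from the opposite strand, was above it in 4 of 4. Its lower neighbour mt-Tp, for tRNA-Pro, was below it in 4 of 4, though the ranges over mice overlapped. Between mt-Rnr2 and mt-Tp the order was not fixed, with mt-Rnr2 higher in 2 of 4 libraries. Against mt-Ts1, for a serine tRNA, mt-Rnr2 was higher in 3 of 4.

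The ratio of each rRNA to the summed 13 protein genes was taken within each library, so that it does not depend on library size or scaling. For mt-Rnr1 it was 1.62 and 1.43 reads per 100 protein gene reads in BrQ 1 and BrQ 3, and 0.984 and 1.24 in Vehicle 1 and Vehicle 3. Both BrQ libraries were above both Vehicle libraries, whereas in the mitochondrial share of gene reads both were below them. The mean was 1.11 ± 0.178 reads per 100 in Vehicle and 1.53 ± 0.137 in BrQ (SD, n = 2 each). On the log2 scale the difference was 0.47 (two-sided exact permutation p = 0.33, which is the lowest value this design can reach).

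For mt-Rnr2 the ratio was 1.82 and 1.72 reads per 100 protein gene reads in BrQ 1 and BrQ 3, and 1.32 and 1.49 in Vehicle 1 and Vehicle 3. Again the groups did not overlap, with BrQ higher. The mean was 1.40 ± 0.121 in Vehicle and 1.77 ± 0.0702 in BrQ (SD, n = 2 each), a log2 difference of 0.33 (exact permutation p = 0.33, two-sided). A higher ratio in BrQ was the rule in these libraries: of all 10223 features tested, 76.0% had both BrQ ratios to the 13 protein genes above both Vehicle ratios. The order of the groups is thus not particular to the rRNA genes. Of the 3 ratios compared (the third is that of mt-Rnr2 to mt-Rnr1), each gave p = 0.33 in the exact permutation test, before and after Benjamini-Hochberg adjustment.

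**Figure D3:**
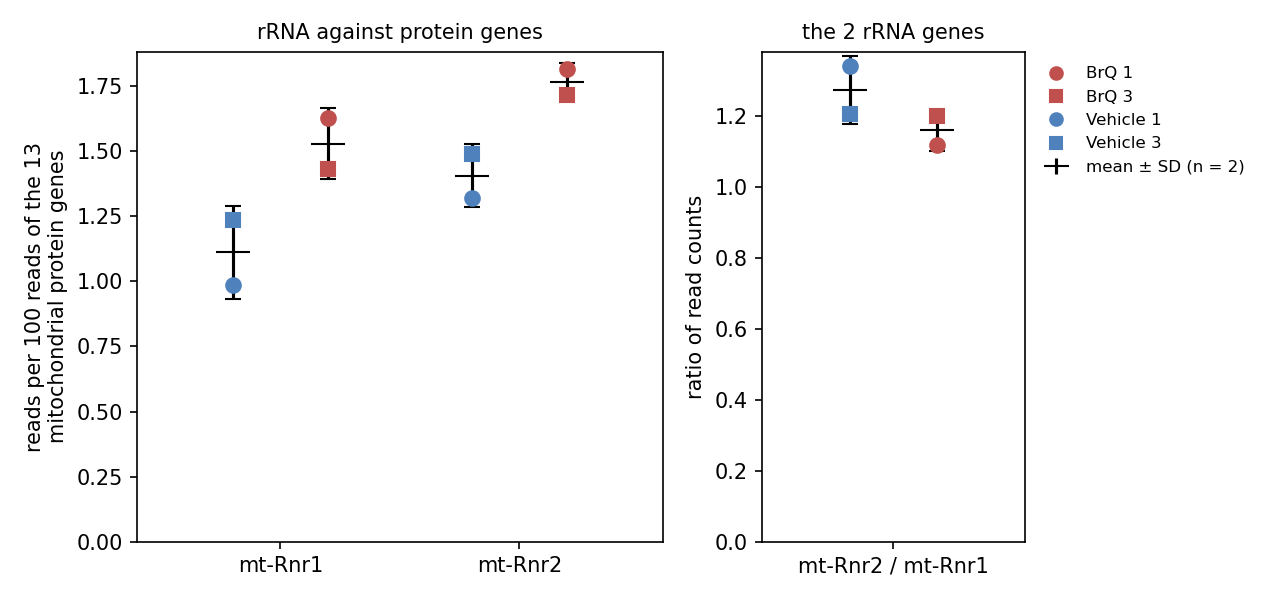
Left, reads of mt-Rnr1 and mt-Rnr2 per 100 reads of the 13 mitochondrial protein genes; right, the ratio of mt-Rnr2 to mt-Rnr1 reads, for each mouse with the group mean and SD (n = 2). Both BrQ points lie above both Vehicle points on the left (for mt-Rnr1, 1.43 and 1.62 against 0.984 and 1.24) and below them on the right.

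As a share of all mitochondrial reads, both rRNA genes together took 3.32% in BrQ 1 (95% Wilson interval 3.29% to 3.35%) and 3.05% in BrQ 3 (3.01% to 3.08%). They took 2.25% in Vehicle 1 (2.22% to 2.27%) and 2.65% in Vehicle 3 (2.63% to 2.67%). The intervals of the 4 libraries do not meet, and they cover counting error only.

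The sum of the protein genes is led by mt-Co1. Without mt-Co1 the log2 difference was 0.64 for mt-Rnr1 and 0.51 for mt-Rnr2. With each of the 13 genes weighed alike it was 0.92 and 0.78, where genes with few reads count as much as mt-Co1. Over the 6 protein genes with few stretches shared with other transcripts, chosen after seeing the data, it was 0.63 and 0.50. Against each protein gene alone, both BrQ ratios exceeded both Vehicle ratios for 13 of 13 genes, for mt-Rnr1 and for mt-Rnr2, as they did for 67.4% of all features tested. These ratios share their numerator and are not independent. For mt-Co1 the groups nearly met. The ratio of mt-Rnr1 to mt-Co1 was 0.0243 in BrQ 3 and 0.0241 in Vehicle 3. That of mt-Rnr2 to mt-Co1 was 0.0292 and 0.0291. The log2 difference against single genes was smallest for mt-Co1, at 0.32 and 0.19, and largest for mt-Atp8, a subunit of ATP synthase with few reads, at 2.30 and 2.16. That size rests on Vehicle 3: without it the differences against mt-Atp8 were 1.20 and 0.99, and those against mt-Atp6, another subunit gene of ATP synthase, were larger, at 1.62 and 1.41. Fitted with edgeR on all features with the sum of the 13 genes as library size, the differences were 0.46 ± 0.49 for mt-Rnr1 (adjusted p = 0.433) and 0.33 ± 0.48 for mt-Rnr2 (adjusted p = 0.575), neither past the threshold. In that fit 50.1% of all features were called higher in BrQ and the median log2 fold change was 1.29, so the rRNA values lay below that of the typical feature.

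The 2 rRNA genes followed each other closely. The ratio of mt-Rnr2 to mt-Rnr1 reads was 1.12 in BrQ 1, 1.20 in BrQ 3, 1.34 in Vehicle 1 and 1.21 in Vehicle 3. Vehicle 1 stood apart from the other 3, and BrQ 3 and Vehicle 3 were almost equal. The mean was 1.27 ± 0.0949 in Vehicle and 1.16 ± 0.0581 in BrQ (SD, n = 2 each), a log2 difference of -0.13 (exact permutation p = 0.33, two-sided). Per kilobase the ratio was 0.699 ± 0.0351 in BrQ and 0.768 ± 0.0573 in Vehicle, so fewer reads fell on each base of the 16S gene than of the 12S gene.

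Among the mitochondrial genes, 23 of 37 passed the filter on low counts, and 22 of these were called lower in BrQ with edgeR, against 22.2% of all features tested. The count was smaller without BrQ 3 and without Vehicle 3, in fits that leave 1 mouse in a group. With no filter on low counts it was 8 of 24, in a fit where 1174 of all 21036 features were called lower. The 22 calls of the main fit were 2 of 2 rRNA genes, 13 of 13 protein genes and 7 of 8 tRNA genes tested. The tRNA gene not called was mt-Ty, for tRNA-Tyr, at 22.7 ± 13.3 CPM in BrQ and 33.4 ± 16.1 in Vehicle (adjusted p = 0.283, edgeR). The median log2 fold change was -0.90 for the rRNA genes, -1.50 for the protein genes and -1.52 for the tRNA genes tested, beside 0.05 for all features tested. After mt-Ty (-0.55), the rRNA genes had the values nearest to 0 of the 23.

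**Figure D4:**
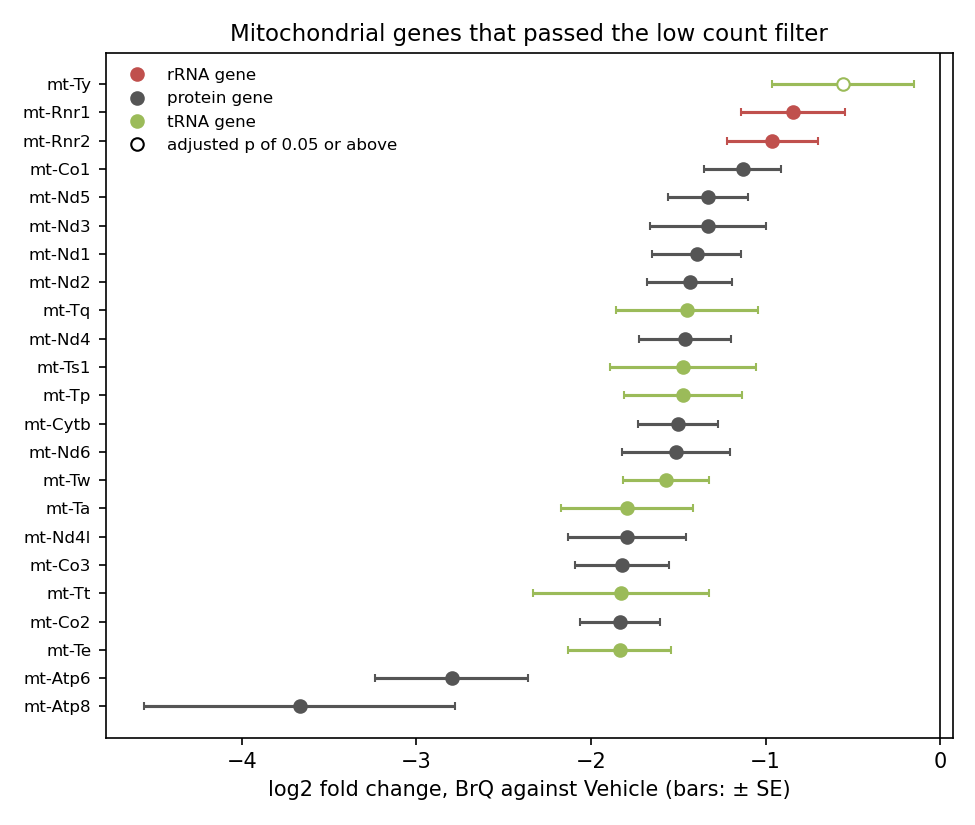
Log2 fold change of BrQ against Vehicle (x axis, bars ± SE, edgeR) for the 23 mitochondrial genes tested, in order of size, with rRNA, protein and tRNA genes in separate colours and an open point where the adjusted p is 0.05 or above. The rRNA genes, at -0.84 and -0.96, lie at the end nearest to 0, below mt-Ty at -0.55 and above mt-Co1 at -1.13.

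For comparison, the log2 fold change was -1.13 ± 0.22 (SE) for mt-Co1, -1.39 ± 0.26 for mt-Nd1, a complex I subunit gene and the next protein gene downstream, and -1.50 ± 0.23 for mt-Cytb, of complex III. The adjusted p values were 0.00292, 0.00214 and 0.000845 with edgeR. The first base of mt-Nd1 lies 76 bases after the last base of mt-Rnr2, and the log2 ratio of mt-Rnr2 to mt-Nd1 was higher by 0.44 in BrQ (exact permutation p = 0.33).

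The pattern over the 4 libraries was compared by the root mean square difference of log2 CPM, each gene centred on its own mean. For mt-Rnr1 the closest mitochondrial gene was mt-Rnr2, at 0.09, followed by mt-Co1 at 0.23 and mt-Ty at 0.26. For mt-Rnr2 it was mt-Rnr1, followed by mt-Co1 at 0.13 and mt-Nd5, a complex I subunit gene, at 0.20. Among all 10223 features, 6 lay closer to mt-Rnr1 than mt-Rnr2 did, and 15 lay closer to mt-Rnr2 than mt-Rnr1 did. With 4 libraries that share their depth and scaling, this is a description only.

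Nuclear genes make the proteins that transcribe, modify and assemble these rRNAs. Of 114 symbols of such genes in the tables (mitochondrial transcription and rRNA factors and mitochondrial ribosomal proteins), 1 lay in the 5 chromosome segments where names and reads were taken to meet. It was Mrpl50, for a protein of the large mitochondrial ribosomal subunit, at 64.8 and 67.7 CPM in BrQ 1 and BrQ 3 and 80.1 and 82.9 CPM in Vehicle 1 and Vehicle 3. Its log2 fold change was -0.30 ± 0.16 (SE), which did not pass (adjusted p = 0.143, edgeR).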

How the data were processed

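Paired-end libraries were made from total lymph node RNA, per the labels' protocols. The submitters' processing notes name HISAT2 2.1.0, Trim Galore 0.6.2, HTSeq 0.11.2 and the mm10 build (GRCm38, that of the GENCODE M21 positions used); annotation release and strand setting were not given in the sources used here. Each deposited table holds unnormalised read counts for 1 mouse, and the authors' 5 closing rows that name no gene entered neither library sizes nor tests (1 alternative excepted).

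Counts were fitted with edgeR 4.0.16 in R 4.3.3 (quasi-likelihood, filterByExpr, TMM, group as the only term, all 4 libraries), with Benjamini-Hochberg adjustment over all features tested and a threshold of 0.05. SEs are the log2 fold change divided by the root of F. CPM values are TMM scaled; patterns used log2 CPM with a prior count of 2. Ratios used raw counts. Alternatives were other scalings and filters, the legacy fit, replicate blocks, voom (limma 3.58.1), DESeq2 1.42.0 and fits without 1 library. On simulated counts for BrQ against Vehicle (9913 features), edgeR found 50 of 100 features given a 2-fold change and 98 of 100 given a 4-fold change. Of its 155 calls, 7 were false. The simulation changed 200 features and gave all features the same dispersion, whereas 45.7% of features were called in the data. These rates therefore need not hold for the rRNA genes.

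Genes named were the rRNA genes, mitochondrial genes flanking them or fixed by symbol, and for each rRNA gene the 3 tested mitochondrial genes closest in pattern; a gene that a count singled out (mt-Ty, mt-Atp8, mt-Atp6) or a neighbour in an order of levels (mt-Nd6, mt-Tp, mt-Ts1) was chosen after its values were seen. The genes and lists were chosen with earlier results of these data known. With 2 mice per group, the p-values speak for these mice only. Those of edgeR, and the SEs taken from its F, rest in part on variance shared over all features tested. Figures were drawn with matplotlib 3.10.9.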

Additional observations from a re-analysis of the deposited data

How the results depend on the processing

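The lower level of mt-Rnr1 and mt-Rnr2 in BrQ kept its direction under all 16 alternatives, and the higher ratio of each to the protein genes under all 11. The alternatives reuse the same 4 libraries and are not independent, and the replicate block cannot change the ratios. The call of mt-Rnr1 was lost under 7 of 16: library size alone (-0.44), library size from all read rows (-0.61), no filter on low counts (-0.81), DESeq2 (-0.86), limma voom (-0.77), and 2 of the fits without 1 library, which ran from -1.31 to -0.21. That of mt-Rnr2 was lost under 4: no filter (-0.93), DESeq2 (-0.97) and 2 of the fits without 1 library (-1.37 to -0.43). With no filter 21036 features were tested in place of 10223. The SE was then 0.38 for mt-Rnr1 and 0.33 for mt-Rnr2, against 0.30 and 0.26 in the main fit. The cause of the lost calls was not tested. The 22 mitochondrial calls became 8 with no filter and 11 to 23 without 1 library. The ratio to the protein genes ran from 0.30 to 0.92 for mt-Rnr1 and from 0.24 to 0.78 for mt-Rnr2, and that of mt-Rnr2 to mt-Rnr1 from -0.21 to -0.06. Summed over the 6 protein genes with under 10% of their 50-base stretches in other transcripts, chosen after seeing the data, the first 2 were 0.63 and 0.50. Other scalings gave 2301 higher and 2416 lower calls over all features (upper quartile), 3607 and 1072 (library size alone) and 3092 and 1578 (all read rows), against 2409 and 2267.

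The deviations of same-numbered libraries from their group means had a weak negative correlation (-0.12 over 10223 features), so the numbers were not shown to pair the mice. With the replicate block the log2 fold changes were -0.77 for mt-Rnr1 and -0.91 for mt-Rnr2, both called, with 4190 calls over all features; the blocked ratios equal the unpaired ones, and 2 pairs allow no p under 0.50. With the numbers crossed, chosen after seeing the data, 5284 features and 23 mitochondrial genes were called.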

Other observations

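Reads on the mitochondrial tRNA genes, the spacers around the rRNA genes among them, differed by strand. Of the 14 tRNA genes on the plus strand, which is that of the rRNA genes, 12 held 0 reads in every library, and 2 (mt-Tw and mt-Tt) held more than 3 reads in each. Of the 8 on the minus strand, 6 held more than 3 reads in each library (mt-Tq, mt-Ta, mt-Ty, mt-Ts1, mt-Te and mt-Tp) and 1 (mt-Tn) held 0 in all 4. The tRNA gene with the most reads over the 4 libraries was mt-Tp (mt-Ts1 held more in BrQ 3, 427), with 763 and 423 in BrQ 1 and BrQ 3 and 924 and 1860 in Vehicle 1 and Vehicle 3. The strand setting of the counting is not given in the sources used here, and its part in this split was not tested.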
